A study of Mus musculus with 6 samples.

Results

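The respiratory chain of mitochondria was followed here through 93 nuclear genes, out of 19505 named genes measured in the submandibular gland, one of the major salivary glands. The genes were taken by name. They comprise the gene families Nduf (a, b, c, s and v), Uqcr, Cox4 to Cox8 and Atp5 together with Sdha, Sdhb, Sdhc and Sdhd, each represented by its probe set with the highest mean. By role they were 36 subunits of complex I, 8 assembly factors of complex I that carry an Nduf name, 4 subunits of complex II, 8 of complex III, 19 of complex IV and 17 of complex V, the ATP synthase. The remaining one, Cox7a2l, is known as a factor that joins complexes III and IV and is not a subunit of complex IV. Ndufa4, although named for complex I, is counted with complex IV, where the protein is now placed, and its relative Ndufa4l2 with it.

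The 6 glands were those of female NOD mice at 10 weeks of age, 3 of the strain NOD.B6-Myd88−/− and 3 of NOD.B6-Myd88+/+. NOD mice develop autoimmune inflammation of the salivary glands, and Myd88 is the adaptor of most Toll-like receptors and of the interleukin-1 receptor family. Each mouse gave 1 Clariom S array, summarised to log2 values by robust multi-array averaging (RMA). Values of single mice are given in the order of replicates 1, 2 and 3 of a genotype. The strain names do not say how much of the chromosome around Myd88 comes from another strain, so an effect of linked alleles cannot be told apart from one of Myd88.

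As background, complexes I and II pass electrons from NADH and succinate to ubiquinone, complex III passes them to cytochrome c, and complex IV passes them to oxygen. Complexes I, III and IV pump protons across the inner membrane, and complex V uses the gradient to make ATP. Striated ducts of salivary glands are packed with mitochondria, which power the uptake of salt from saliva. Most subunits are encoded in the nucleus and needed in all tissues, while complex IV has several subunits with a second form that is restricted to muscle, lung or testis.

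The nuclear genes of the chain are known to share promoter elements, and the letters of a few upstream regions are given to show them. RefSeq promoter windows (GRCm38.p6, 250 bases before to 50 after a start) were matched for 77 of the 93 genes, in 82 windows. On either strand, the element of nuclear respiratory factor 1, GCGC and TGCGC parted by any 1 base, stood in 24.4% of these windows and in 6.38% of the 21263 windows of all protein-coding genes. The core of ETS factors such as GABP, CCGGAAG, stood in 23.2% and 11.6%, the YY1 element AAGATGGCG in 9.76% and 1.83%, and the element of the estrogen-related receptors, TGACCTTG, in 4.88% and 1.34%. None of the 4 stood in any of the 4 windows of tissue-restricted complex IV genes (0 of 4). Those windows had a median of 8.5 CG pairs, against 19.5 for all members and 13 for all protein-coding genes. The part of CG content in the shares above was not tested. A match of letters is a description and not a binding site. The 250 bases before the start are printed 5′ to 3′ in lower case, with matched elements in capitals. In this stretch Cox6a1 holds 2 matches of the nuclear respiratory factor 1 element and 1 of the ETS core. Atp5g3 holds the estrogen-related receptor element, and the muscle gene Cox8b and the complex I gene Ndufa3 hold none. The full window of Atp5g3 also has the nuclear respiratory factor 1 element, in a match that is not within the printed bases.
Cox6a1, chr5:115348959-115349208, minus strand: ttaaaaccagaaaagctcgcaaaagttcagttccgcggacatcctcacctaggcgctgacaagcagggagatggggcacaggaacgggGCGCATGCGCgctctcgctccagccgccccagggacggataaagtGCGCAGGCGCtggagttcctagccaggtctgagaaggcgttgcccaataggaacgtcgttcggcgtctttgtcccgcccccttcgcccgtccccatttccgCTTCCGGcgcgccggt
Atp5g3, chr2:73911327-73911576, minus strand: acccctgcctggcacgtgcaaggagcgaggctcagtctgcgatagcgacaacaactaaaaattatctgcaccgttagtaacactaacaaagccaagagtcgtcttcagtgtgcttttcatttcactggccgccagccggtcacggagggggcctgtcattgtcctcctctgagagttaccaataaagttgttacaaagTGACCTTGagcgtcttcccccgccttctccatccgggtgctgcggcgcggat
Cox8b, chr7:140900447-140900696, minus strand: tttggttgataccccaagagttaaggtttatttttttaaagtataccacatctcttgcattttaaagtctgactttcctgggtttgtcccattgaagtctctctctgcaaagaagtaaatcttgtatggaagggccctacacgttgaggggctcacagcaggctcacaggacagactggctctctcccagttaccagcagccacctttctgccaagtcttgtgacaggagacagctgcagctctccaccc
Ndufa3, chr7:3617123-3617372, plus strand: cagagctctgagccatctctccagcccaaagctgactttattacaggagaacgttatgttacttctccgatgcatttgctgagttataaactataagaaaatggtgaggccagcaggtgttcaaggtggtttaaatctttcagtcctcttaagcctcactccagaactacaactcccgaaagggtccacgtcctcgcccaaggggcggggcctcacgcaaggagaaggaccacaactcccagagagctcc

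Facts of the whole series bear on what follows. The signal span of an array, its 90th minus its 10th percentile, was 6.95, 7.13 and 6.83 log2 units for Myd88−/− glands and 7.30, 7.10 and 7.20 for Myd88+/+ glands. Over all 22206 tested probe sets the median log2 difference, Myd88−/− minus Myd88+/+, was 0.02, and among the brightest 25% it was −0.09. Myd88 itself had values of 7.33, 6.80 and 7.47 in Myd88−/− glands and 7.81, 7.86 and 7.53 in Myd88+/+ glands, a difference of −0.53 without overlap (limma adjusted p = 0.462), and no source used here says whether its probes lie in the deleted part. Of 13 leukocyte markers 12 read lower in Myd88−/− glands, with a median difference of −1.14 over all 13. Their mean score was taken with each gene set to its mean over the mice. It ran from −0.57 to −0.43 in Myd88−/− and from −0.07 to 1.30 in Myd88+/+ glands. In a whole gland, fewer cells of a type and less RNA per cell cannot be told apart.

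No gene of the respiratory chain passed the test between the genotypes. At limma's adjusted p under 0.05, 0 of 93 members were called, against 0% of all tested probe sets, and the smallest adjusted p among members was 0.388. The median log2 difference over the members was −0.07, with 53 lower and 40 higher in Myd88−/− glands, that is 57.0% lower against 47.5% of all tested probe sets and 64.4% of the brightest 25%, where 72 of the members lie. Quantile normalization turned that median to 0.02, and leaving out Myd88−/− replicate 3 or Myd88+/+ replicate 1 gave 0.01, so it has no settled sign. At limma's unadjusted p under 0.05, 4 members were lower and 0 higher, 4.30% in all, against 10.1% of all tested probe sets (5.55% lower and 4.5% higher). That count moved with single mice. It was 1, 10 and 2 without Myd88−/− replicate 1, 2 or 3, and 3, 1 and 10 without Myd88+/+ replicate 1, 2 or 3. Its direction moved with the scaling. After quantile normalization, and also after cyclic loess, Ndufb10, Ndufs1 and Uqcrq were counted as higher. Ndufa3, Ndufaf3 and Ndufs7 were still counted as lower under both.

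The size of the difference was bounded for most members, at a share near that of all tested probe sets. The 93 differences ran from −0.81 (Ndufs7) to 0.37 (Ndufs1), which is 1.75-fold lower to 1.29-fold higher, and 87 of them were under 0.5 log2 units in size. The 95% interval of the difference lay within 1 log2 unit of 0 for 85 members (91.4%), against 88.2% of all tested probe sets. The 8 whose interval reached further were Ndufs7, Ndufv1, Ndufa8, Ndufv3, Cox8a, Cox6a1, Atp5d and Cox7b2. In 88 members the difference was smaller than the wider of the 2 ranges within a genotype. The typical member had a range of 0.52 log2 units within a genotype and a difference of 0.16 in size, both as medians over members. The 2 groups did not overlap in 11 members (11.8%), 7 lower and 4 higher, against 15.1% of all tested probe sets (7.25% lower and 7.84% higher).

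**Figure D1:**
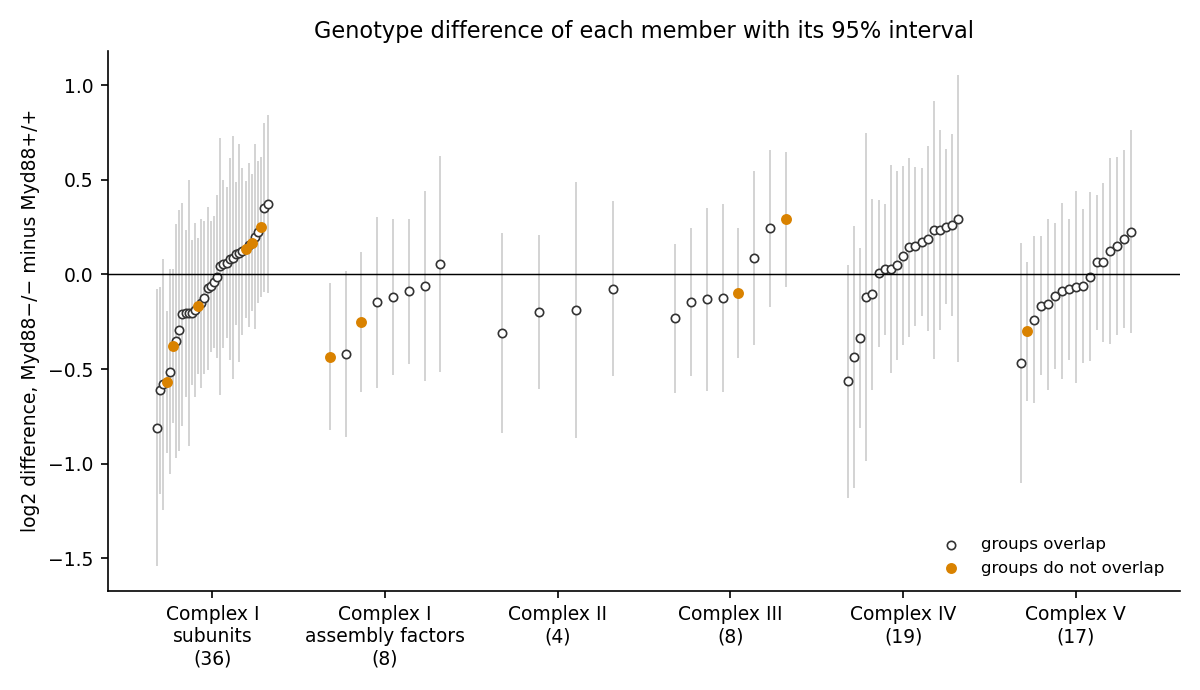
Log2 difference, Myd88−/− minus Myd88+/+, of the members by complex (all but Cox7a2l), each with its 95% interval from limma, sorted within a complex; orange points mark members whose mice do not overlap between genotypes. Points lie on both sides of 0 in every class except the 4 genes of complex II, and only 3 subunits of complex I and 1 assembly factor have intervals that leave out 0.

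Complex I, the entry point for electrons from NADH, held the largest differences. Of its 36 subunits 20 read lower and 16 higher in Myd88−/− glands, with a median of −0.05. Ndufa3, an accessory subunit of the membrane arm, had the smallest p of all members. It read 12.74, 12.90 and 12.87 in Myd88−/− glands and 13.57, 13.27 and 13.37 in Myd88+/+ glands, a difference of −0.57 (standard error, SE, 0.17, limma adjusted p = 0.388). The highest Myd88−/− gland lay below the lowest Myd88+/+ gland, and the difference stayed between −0.63 and −0.48 when any single mouse was left out.

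The core subunits of complex I hold the flavin and the iron-sulfur clusters that carry the electrons, and 6 of them were measured, 4 lower and 2 higher. Those with limma's unadjusted p under 0.05 were 2, both lower, where 5.55% of all tested probe sets were. Ndufs7, which holds the last cluster before ubiquinone, read 10.74, 11.78 and 10.55 in Myd88−/− glands and 12.20, 11.80 and 11.49 in Myd88+/+ glands, a difference of −0.81 (SE 0.32, limma adjusted p = 0.462). Myd88−/− replicate 2 lay within the Myd88+/+ range and more than 1 log2 unit above the other two Myd88−/− glands, and without it the difference was −1.19, against −0.57 without Myd88−/− replicate 3. Ndufv1, the subunit that binds NADH, read 13.75, 14.11 and 13.95 in Myd88−/− glands and 14.78, 14.84 and 14.02 in Myd88+/+ glands, a difference of −0.61 (SE 0.24, limma adjusted p = 0.459). Here the groups met through Myd88+/+ replicate 3, without which the difference was −0.88.

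Another core subunit had the highest difference of all members. Ndufs1, the large subunit with several iron-sulfur clusters, read 13.02, 13.42 and 12.69 in Myd88−/− glands and 12.73, 12.58 and 12.71 in Myd88+/+ glands, a difference of 0.37 (SE 0.21, limma adjusted p = 0.586). Myd88−/− replicate 3 lay within the Myd88+/+ range, and the difference ran from 0.18 to 0.55 without single mice. Ndufb10, an accessory subunit of the membrane arm, read 8.28, 8.61 and 8.16 in Myd88−/− glands and 8.17, 7.72 and 8.09 in Myd88+/+ glands, a difference of 0.35 (limma adjusted p = 0.587) that was 0.22 when either mouse numbered 2 was left out. The subunits of a single enzyme thus gave values on both sides of 0. Among accessory subunits whose groups did not overlap, Ndufa12 and Ndufa13 read lower by −0.38 and −0.17, and Ndufs6, Ndufab1 and Ndufb11 higher by 0.25, 0.17 and 0.13. Ndufb4 and its copy Ndufb4b, which can share probes, had 0.15 and −0.21, and their separate values are uncertain.

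The 8 assembly factors of complex I, proteins that help build the enzyme and are not part of it, read lower in 7 of 8 cases, with a median of −0.13. Ndufaf3, which acts early in that assembly, read 5.63, 5.59 and 5.54 in Myd88−/− glands and 5.83, 6.24 and 5.997 in Myd88+/+ glands, a difference of −0.43 (SE 0.17, limma adjusted p = 0.459). The groups did not overlap, but the Myd88−/− values lie close to the background control median of 5.55, so the size of the difference is uncertain. Ndufaf1 also did not overlap (−0.25), and Ndufaf8 had −0.42 with overlap. Ndufaf3 lies on chromosome 9, as Myd88 does. The 5 other members on that chromosome, Atp5l, Cox5a, Cox7a2, Sdhd and Uqcrc1, had differences from −0.13 to 0.25. In none of them (0 of 5) did the groups part, against 15.1% of all tested probe sets. An effect of linked alleles on Ndufaf3 was not tested.

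**Figure D2:**
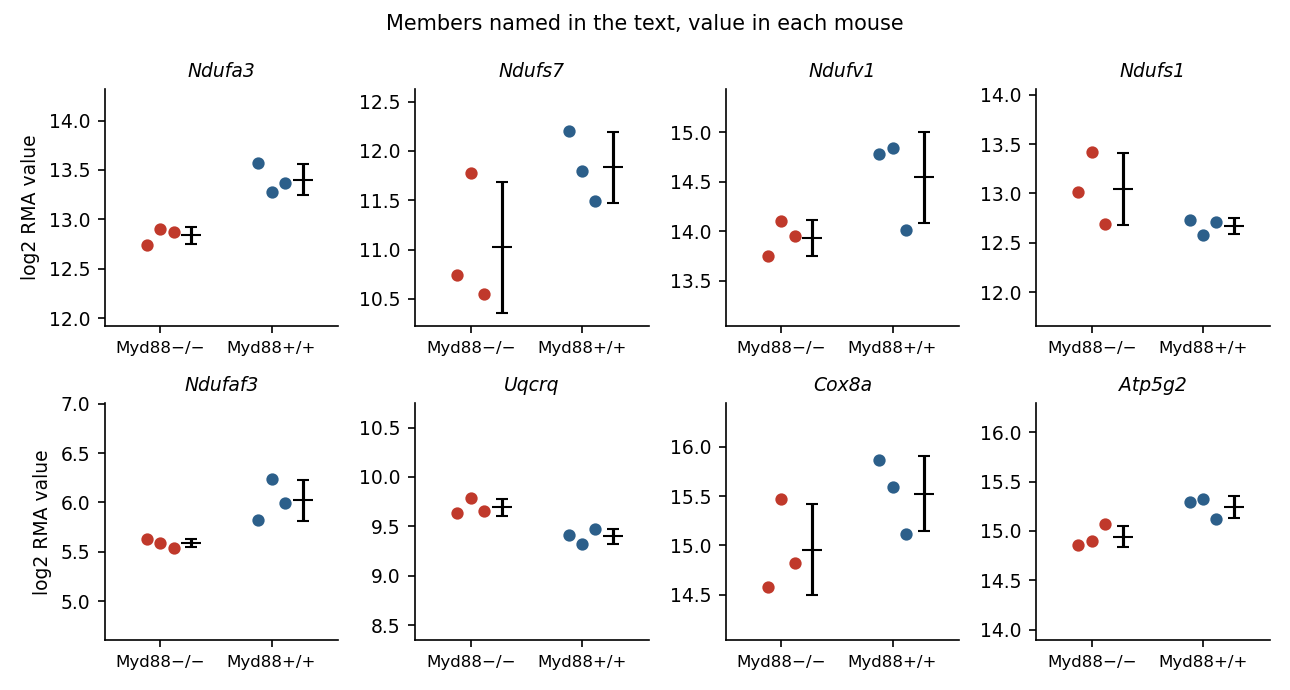
Log2 RMA value of 8 members in each of 3 Myd88−/− (red, left) and 3 Myd88+/+ mice (blue, right), with the mean and SD of each genotype in black; all panels have the same height in log2 units. The genotypes are apart in Ndufa3, Ndufaf3, Uqcrq and Atp5g2 and overlap in the other four, in Ndufs7 and Cox8a through Myd88−/− replicate 2.

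Complex II, succinate dehydrogenase, is also an enzyme of the tricarboxylic acid cycle, and its 4 subunits are all nuclear. All 4 had a lower mean in Myd88−/− glands, and in all 4 the groups overlapped. Sdha, the flavin subunit, read 10.74, 11.28 and 10.91 in Myd88−/− glands and 11.50, 11.55 and 10.44 in Myd88+/+ glands, a difference of −0.19 (limma adjusted p = 0.864). The lowest of the 6 values was that of Myd88+/+ replicate 3, without which the difference was −0.55. Sdhb, the iron-sulfur subunit, read 12.04, 12.23 and 11.79 in Myd88−/− glands and 12.09, 12.36 and 12.20 in Myd88+/+ glands, a difference of −0.20 that was −0.083 without Myd88−/− replicate 3. Sdhc and Sdhd anchor the enzyme in the membrane. Sdhc read 10.37, 10.29 and 9.67 in Myd88−/− glands and 10.59, 10.56 and 10.10 in Myd88+/+ glands, a difference of −0.31 (limma adjusted p = 0.690). Without Myd88−/− replicate 3 it was −0.089. Sdhd read 11.09, 11.26 and 10.63 in Myd88−/− glands and 11.25, 11.01 and 10.95 in Myd88+/+ glands, a difference of −0.08 that turned to 0.06 after quantile normalization and to 0.03 after cyclic loess.

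In complex III 5 of 8 subunits read lower and 3 higher in Myd88−/− glands, with a median of −0.11. Uqcrq, a small subunit next to cytochrome b, read 9.64, 9.79 and 9.65 in Myd88−/− glands and 9.42, 9.32 and 9.47 in Myd88+/+ glands, a difference of 0.29 (SE 0.16, limma adjusted p = 0.573). Its groups did not overlap, and leaving out single mice gave 0.24 to 0.32. Uqcrb, another small subunit, read 18.35, 18.24 and 18.16 in Myd88−/− glands and 18.05, 17.73 and 18.24 in Myd88+/+ glands, a difference of 0.24 near the top of the scale, where differences can be compressed. The groups overlapped through Myd88+/+ replicate 3, and leaving out Myd88+/+ replicate 2 gave 0.10. Among the lower ones, Uqcrh, the hinge protein of cytochrome c1, read 15.02, 15.44 and 15.12 in Myd88−/− glands and 15.47, 15.37 and 15.43 in Myd88+/+ glands (−0.23). Uqcr10 read 9.46, 9.87 and 9.76 in Myd88−/− glands and 9.80, 9.81 and 9.91 in Myd88+/+ glands (−0.15). Both overlapped through Myd88−/− replicate 2, and without Myd88−/− replicate 1 they had −0.15 and −0.027. The core protein Uqcrc2 showed how small a gap can part the groups, with 10.95, 10.98 and 10.95 in Myd88−/− glands and 11.07, 11.05 and 11.05 in Myd88+/+ glands, a difference of −0.10.

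Complex IV, cytochrome c oxidase, had 14 of 19 members higher in Myd88−/− glands, with a median of 0.10. Its 11 general subunits were 7 higher and 4 lower, with a median of 0.03, and its 8 tissue-restricted forms 7 higher and 1 lower, with a median of 0.17. Most of these forms are dim, and in the 9 dimmest of 20 bins of all tested probe sets the median difference also lay above 0, between 0.06 and 0.12. The groups did not overlap in 0 of the 19, against 15.1% of all tested probe sets. Cox8a, the general form of subunit VIII, had the smallest p in the complex. It read 14.58, 15.47 and 14.82 in Myd88−/− glands and 15.86, 15.60 and 15.11 in Myd88+/+ glands, a difference of −0.56 (SE 0.27, limma adjusted p = 0.534) that ran from −0.82 to −0.38 without single mice. Cox6b1, a subunit that faces the intermembrane space, read 12.94, 13.25 and 12.54 in Myd88−/− glands and 13.24, 13.10 and 13.39 in Myd88+/+ glands (−0.33, and −0.15 without Myd88−/− replicate 3). In both genes Myd88−/− replicate 2 was the highest of its genotype and lay within the Myd88+/+ range. Cox5a, which contacts the catalytic core from the matrix side, read 12.11, 12.41 and 12.17 in Myd88−/− glands and 11.79, 11.93 and 12.21 in Myd88+/+ glands (0.25, and 0.16 to 0.37 without single mice). Cox6a1 and Ndufa4 had −0.44 and 0.17. Cox7c read 19.06, 19.11 and 19.01 in Myd88−/− glands and 19.06, 19.03 and 19.01 in Myd88+/+ glands, close to the ceiling of the values at 19.93.

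The tissue-restricted forms of complex IV were mostly at background, as a group of 8 of which 7 had a higher mean in Myd88−/− glands. Cox7a1, the form of heart, skeletal muscle and brown fat, stood well above it. It read 9.13, 9.45 and 9.13 in Myd88−/− glands and 9.38, 8.84 and 8.72 in Myd88+/+ glands, a difference of 0.26 (SE 0.21, limma adjusted p = 0.706). The groups overlapped through Myd88+/+ replicate 1, without which the difference was 0.46, while leaving out Myd88+/+ replicate 3 gave 0.13 and leaving out Myd88−/− replicate 2 gave 0.15. The other muscle forms were near the background control median of 5.55. Cox6a2 read 5.91, 5.23 and 5.64 in Myd88−/− glands and 5.34, 5.67 and 5.48 in Myd88+/+ glands, and Cox8b read 4.56, 6.24 and 5.64 in Myd88−/− glands and 5.91, 5.70 and 5.18 in Myd88+/+ glands. Of 16 markers of skeletal muscle, a tissue next to the gland, 12 had both group means under that median, and their mean score lay between 0.02 and 0.18 in Myd88−/− and between −0.29 and 0.04 in Myd88+/+ glands. Of the 16 markers 12 had a higher and 4 a lower mean in Myd88−/− glands, with a median difference of 0.06. At limma's unadjusted p under 0.05, 3 were higher and 1 lower, 25% of the list against 10.1% of all tested probe sets. Ckm and Atp2a1, the 2 muscle markers with the smallest p, had −0.65 and 0.68. The brown fat gene Ucp1 had means of 3.95 in Myd88−/− and 3.75 in Myd88+/+ glands, below background. The part of other tissues in the level of Cox7a1 was not tested.

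The forms known from lung and testis gave no difference that their spread allows to be read. Cox4i2, of lung, read 5.57, 4.77 and 5.19 in Myd88−/− glands and 4.43, 4.85 and 5.54 in Myd88+/+ glands. Cox6b2, of testis, read 4.17, 4.84 and 4.11 in Myd88−/− glands and 4.23, 4.33 and 3.87 in Myd88+/+ glands. Both lie under background in both genotypes, as does Ndufa4l2, a gene induced by low oxygen, with 4.39, 4.205 and 4.09 in Myd88−/− glands and 4.44, 4.37 and 3.73 in Myd88+/+ glands. Cox7b2, of testis, read 6.39, 4.97 and 5.67 in Myd88−/− glands and 5.01, 5.43 and 5.71 in Myd88+/+ glands. Its difference of 0.29 became −0.06 without Myd88−/− replicate 1. Cox8c, also of testis, stood above the background median with 6.96, 7.60 and 6.999 in Myd88−/− glands and 6.90, 7.55 and 7.02 in Myd88+/+ glands, a difference of 0.03.

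Complex V, the ATP synthase, had 11 of 17 members lower and 6 higher, with a median of −0.07. Its ring of c subunits is made from 3 genes, Atp5g1, Atp5g2 and Atp5g3, which encode the same mature protein, and these gave different values. Atp5g2 read 14.86, 14.90 and 15.07 in Myd88−/− glands and 15.30, 15.32 and 15.12 in Myd88+/+ glands, a difference of −0.30 without overlap (SE 0.16, limma adjusted p = 0.573). Atp5g1 read 15.02, 15.07 and 14.71 in Myd88−/− glands and 15.34, 14.99 and 14.73 in Myd88+/+ glands (−0.09). Atp5g3 read 14.96, 14.67 and 14.55 in Myd88−/− glands and 14.87, 14.26 and 14.50 in Myd88+/+ glands (0.19, and 0.044 without Myd88+/+ replicate 2). The 95% intervals of these 3 differences overlap one another, and whether they differ was not tested.

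Outside the ring, the F1 part of complex V, which makes the ATP, held its largest difference. Atp5d, the delta subunit of F1, read 13.17, 13.87 and 13.19 in Myd88−/− glands and 14.29, 13.98 and 13.36 in Myd88+/+ glands, a difference of −0.47 (SE 0.28, limma adjusted p = 0.612). The groups overlapped through Myd88−/− replicate 2, as in Ndufs7 and Cox8a, and leaving out Myd88+/+ replicate 3 or 1 gave −0.73 or −0.26. The F1 genes Atp5a1 and Atp5b had −0.11 and −0.17, and the 4 subunits of the peripheral stalk ran from −0.08 to 0.12. Atp5l, a subunit at the dimer interface, read 12.12, 11.76 and 11.61 in Myd88−/− glands and 11.66, 11.18 and 11.97 in Myd88+/+ glands (0.23, limma adjusted p = 0.778). Without Myd88+/+ replicate 2 its difference was 0.015, and without Myd88+/+ replicate 3 it was 0.41.

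**Figure D3:**
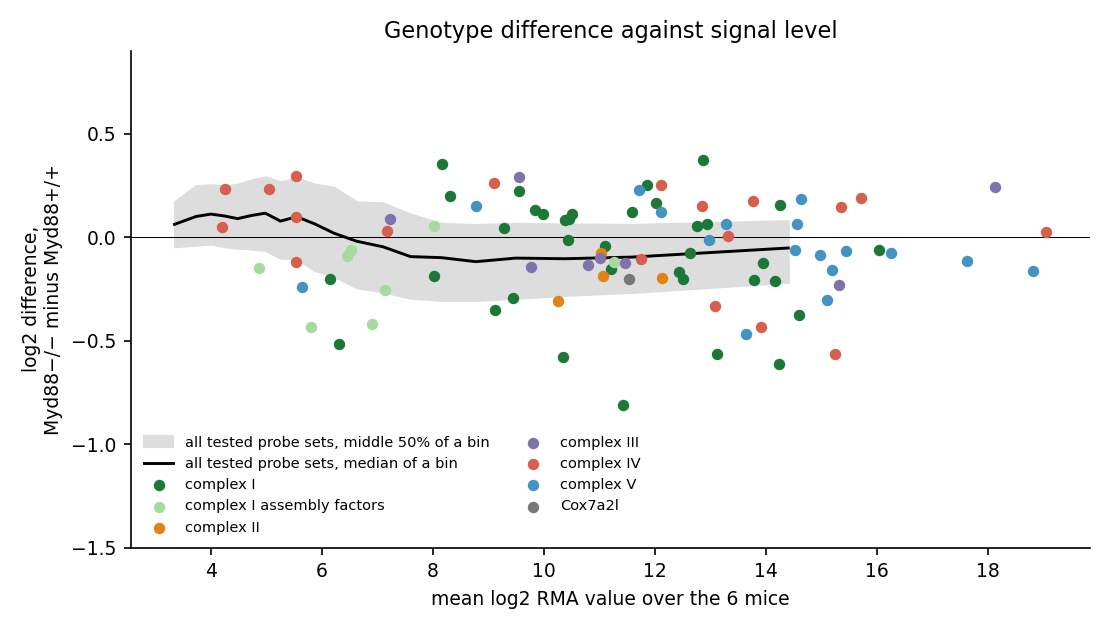
Log2 difference, Myd88−/− minus Myd88+/+, against the mean log2 RMA value over the 6 mice for all 93 members (coloured by class), with the median (line) and the middle 50% (band) of all tested probe sets in 20 bins of signal. Bright probe sets as a whole sit below 0, with a median of −0.09 in the brightest 25%, and members scatter on both sides of that line.

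The members followed a common pattern between single mice within each genotype, which other mitochondrial lists, glycolysis and bright probe sets in part showed too. Myd88−/− replicate 2 had the highest value of its genotype in 67 of 93 members (72.0%), against 36.5% of all tested probe sets and 53.2% of the brightest 25%. Myd88−/− replicate 3 had the lowest in 54 members (58.1%, against 34.3% and 49.2%). Among Myd88+/+ glands replicate 1 was highest in 55 members (59.1%), against 37.3% of all tested probe sets and 51.3% of the brightest 25%. No test was made of these shares, since members are not independent of each other.

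The mean score of all 93 members, each set to its own mean over the 6 mice, put this in 1 value per gland. It was −0.08, 0.15 and −0.16 in Myd88−/− glands and 0.16, −0.02 and −0.04 in Myd88+/+ glands. The genotype means of −0.03 ± 0.16 and 0.03 ± 0.11 (SD, n = 3 each) differ by less than the SD within either genotype. Complex I scored −0.12, 0.16 and −0.18 in Myd88−/− and 0.20, −0.03 and −0.04 in Myd88+/+ glands. Complexes III, IV and V, like complex I, had Myd88−/− replicate 2 and Myd88+/+ replicate 1 as the highest of their genotypes. Complex II differed in Myd88+/+ glands, with 0.24, 0.25 and −0.20, and in Myd88−/− glands it scored −0.06, 0.14 and −0.37.

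The same glands were highest in measures of the arrays. Myd88−/− replicate 2 and Myd88+/+ replicate 1 had the widest signal span of their genotypes, 7.13 and 7.30 log2 units, and the mean score of the brightest 25% of probe sets was −0.07, 0.04 and −0.15 in Myd88−/− and 0.13, 0.01 and 0.04 in Myd88+/+ glands. Quantile normalization, which makes the spans equal, brought that score to between −0.01 and 0.00 in all 6 glands. The members' score then read −0.04, 0.12 and −0.06 in Myd88−/− and 0.07, −0.02 and −0.07 in Myd88+/+ glands. Its range over the mice went to 0.20 log2 units, against 0.33 in the deposited values, with the same gland highest in each genotype. The part of the arrays' signal span in the members' pattern was not tested.

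**Figure D4:**
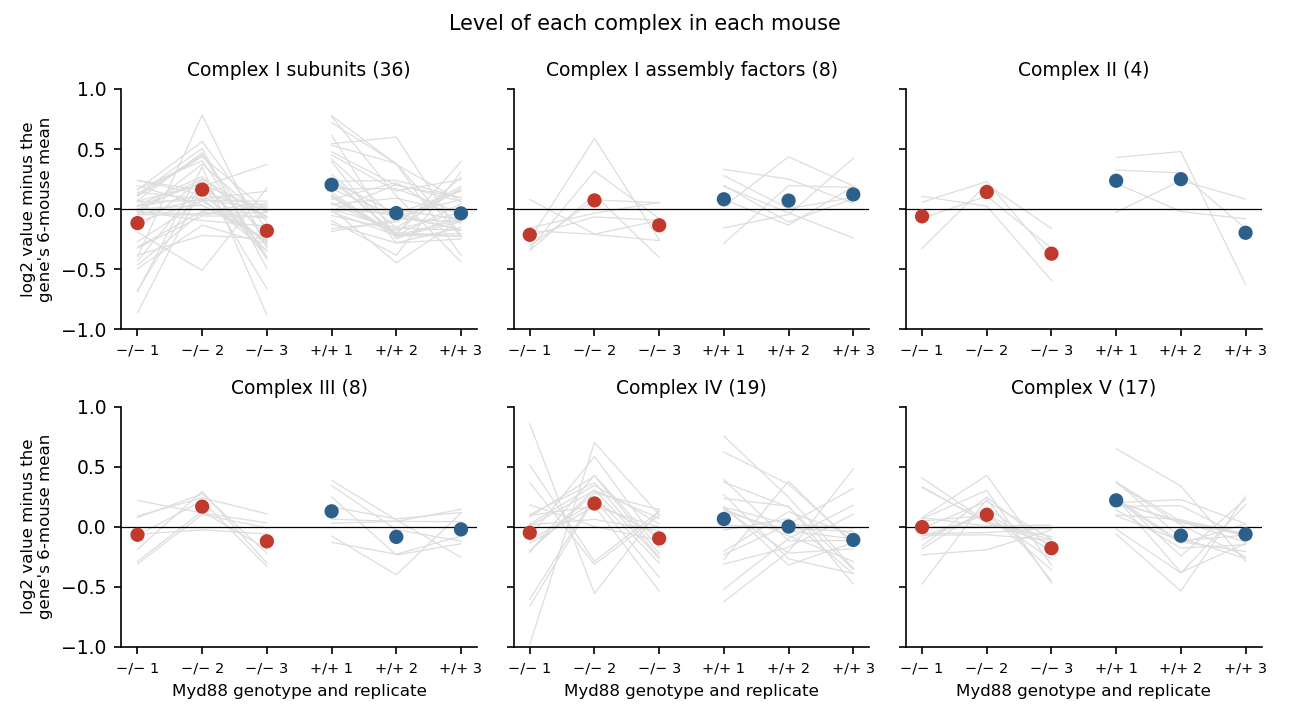
Log2 value minus the gene's mean over the 6 mice, for each member (grey lines, joined within a genotype) and as the mean of the class (points), in Myd88−/− (red) and Myd88+/+ (blue) replicates 1 to 3; the number of genes is in brackets, and lines join mice only to show which values belong to 1 gene. Replicate 2 of the Myd88−/− mice has the highest class mean of its genotype in all 6 panels.

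In neighbouring pathways of the mitochondrion again no gene passed limma's test over all probe sets (0 called). The tricarboxylic acid cycle with pyruvate dehydrogenase had 11 of 18 measured genes lower and 7 higher in Myd88−/− glands, with a median of −0.05. Dld, the shared dehydrogenase subunit, had 0.37 and Idh3b, of isocitrate dehydrogenase, −0.33. Electron carriers and subunits outside the families above numbered 9, with a median of 0.00, and included Cycs, cytochrome c, with 0.13 and Gpd2, the glycerol phosphate shuttle enzyme, with −0.50. Assembly factors of all complexes had 22 of 41 lower, among them Oxa1l, which inserts proteins into the inner membrane, with −0.46 and Foxred1, of complex I, with −0.61.

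Mitochondrial ribosomal proteins had 52 of 76 genes lower and a median of −0.09, with Mrps5 at 0.50 and Mrps18b at −0.56. Import subunits of the Tomm and Timm families had 14 of 25 lower, with Timm9 at 0.55 and Tomm6 at −0.32. Of 18 regulators of mitochondrial biogenesis 9 read lower and 9 higher, with the nuclear receptor Esrrg at 0.41 and the coactivator Pprc1 at 0.40. Glycolysis had 9 of 13 genes lower, with Pfkp, a phosphofructokinase, at −0.63 and Aldoa, an aldolase, at −0.37. At limma's unadjusted p under 0.05, the mitochondrial ribosome had 1 higher and 3 lower, import 1 higher, the assembly factors 1 lower and glycolysis 1 lower, while the cycle, the carriers and the regulators had 0. These are 5.26% of the ribosomal list, 4% of import, 2.44% of the assembly factors and 7.69% of glycolysis, all under the 10.1% of all tested probe sets. The order of the mice was close to that of the respiratory chain. The ribosomal score was −0.11, 0.15 and −0.18 in Myd88−/− and 0.19, −0.01 and −0.05 in Myd88+/+ glands. The score of the tricarboxylic acid cycle was −0.07, 0.20 and −0.17 in Myd88−/− and 0.16, 0.00 and −0.13 in Myd88+/+ glands. In both lists, as in import and the assembly factors, Myd88−/− replicate 2 and Myd88+/+ replicate 1 were the highest of their genotypes. Glycolysis had the same highest glands, so this order was not particular to mitochondrial lists. Its score was −0.20, 0.18 and −0.10 in Myd88−/− and 0.13, −0.01 and 0.00 in Myd88+/+ glands.

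Markers of the gland's own cells were measured beside these. Acinar cells were present, with means of Aqp5, the water channel of acini, of 13.84 in Myd88−/− and 13.98 in Myd88+/+ glands. Of 12 duct markers 7 read lower and 4 higher, and 1 was at the ceiling on every array. Ascl3 and Foxi1, transcription factors of duct ionocytes, had −0.96 and −0.60 without overlap, both with limma adjusted p over 0.05 (0.360 and 0.388). The duct score was −0.31, 0.05 and −0.04 in Myd88−/− and 0.22, 0.15 and −0.06 in Myd88+/+ glands, so that Myd88−/− replicate 2 and Myd88+/+ replicate 1 were again the highest of their genotypes. Of 9 acinar markers 6 read lower and 1 higher, and 2 were at the ceiling, with a median of −0.11 and overlap of the groups in all 9. Bpifa2, a secreted salivary protein, had −2.66 (SE 0.80, limma adjusted p = 0.388), and Dcpp3, another, had −2.52 (SE 2.28), its value of 14.91 in Myd88+/+ replicate 3 standing apart. The acinar score was −0.30, −0.37 and −0.28 in Myd88−/− and 0.13, 0.04 and 0.79 in Myd88+/+ glands, highest in that same mouse. This score is a mean over the 9 genes, whose differences had a mean of −0.64 beside the median of −0.11. Bpifa2 and Dcpp3 carried most of that mean, so the score does not speak for acinar markers in general. Of 11 adipocyte markers 7 read higher and 4 lower in Myd88−/− glands, with a median of 0.09. In 9 of them both means lay under background. Lipe, a lipase of fat cells, was among the lower ones at −0.50, and the red cell gene Alas2 had 0.49. The part of these cells in the members' values was not tested.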

How the data were processed

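The deposited table holds log2 values that the authors made with RMA in the Transcriptome Analysis Console, as stated per the labels. The software version, which form of RMA was used and the array annotation's build were not given in the sources used here. That the scale is log2 follows from the range, 2.26 to a ceiling of 19.93. Of 28846 probe sets, 6640 controls were left out and 22206 were tested, of which 19572 had 1 gene symbol, 0 several and 2634 none here. Every member had a single probe set. Subunits encoded by the mitochondrial genome are not analysed here.

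Groups came from sample titles. The genotypes, Myd88−/− minus Myd88+/+, were tested by limma (version 3.58.1, R version 4.3.3) through lmFit and eBayes without covariates. P-values were adjusted by Benjamini-Hochberg across the 22206 probe sets, with calls at an adjusted p under 0.05 and intervals of 95%. The fit was tested on simulated data. Nothing says whether mice shared litters or cages, so p-values measure the spread between these animals. The number of arrays limits the precision. Differences can be compressed near background and near the ceiling of the values, which was not measured here.

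The members and lists were chosen with earlier results of these data known. Named members were, in each complex, the 2 with the smallest unadjusted p in each direction, tissue-restricted forms, c subunit and complex II genes and all at an unadjusted p under 0.05; from other lists, up to 2 with the smallest p. Aqp5, Ucp1, Uqcrc2, Cox7c, the members named with a difference alone and Ppargc1a were added after their values were seen. Alternatives were other scalings, filters on dim probe sets, variance models, array weights, the replicate number as a block, subunits alone, a mean over a gene's probe sets and leaving out each mouse. Same-numbered mice did not deviate together (r = −0.11, −0.15 and −0.02 over probe sets). With so few mice per genotype, these values cannot decide whether the numbers pair mice, for example by litter or cage.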

Additional observations from a re-analysis of the deposited data

How the results depend on the processing

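The number of members called at limma's adjusted p was 0 under all 17 alternatives, of which subunits alone and the mean of a gene's probe sets could not add a call through the members' own values, and the smallest adjusted p of any named member under any of them was 0.192 (Ndufs7). The median difference of the members, −0.07, ran from −0.16 to 0.02, and from −0.16 to 0.01 when single mice were left out. It was −0.07 with the replicate block, which changed no call. The block also gave 4 members at an unadjusted p under 0.05, 3 of them shared, with Ndufa8 in place of Ndufaf3. That count of 4, all lower, was 8 after quantile normalization, 7 after cyclic loess and 9 with array weights, and 1 to 10 without single mice. Ndufb10, Ndufs1 and Uqcrq, all higher, were among the 8 (0.48, 0.46 and 0.43) and the 7 (0.44, 0.46 and 0.40). Ndufa3, Ndufaf3 and Ndufs7 were lower in both. The cause was not tested. Over all probe sets 0 were called, but 2 after median centring, 4 with an intensity trend and robust variances and 0 to 5 without single mice. Leaving out 1 mouse moved the difference by over 1.5 times in 24 of the 30 named members, the other six being Atp5g2, Ndufa3, Ndufaf3, Ndufs7, Ndufv1 and Uqcrq. Of the 30, 21 kept their sign under all alternatives. Ndufa4l2 turned to −0.056 after quantile normalization and −0.047 after cyclic loess, Sdhd to 0.060 and 0.028, and Cox8c to −0.11 with array weights. Leaving out single mice gave −0.18 to 0.18 for Ndufa4l2, −0.21 to 0.11 for Sdhd, −0.18 to 0.22 for Cox8c, −0.23 to 0.074 for Atp5g1, −0.019 to 0.53 for Cox4i2, −0.060 to 0.28 for Cox6a2, −0.061 to 0.645 for Cox7b2, −0.50 to 0.34 for Cox8b and −0.55 to 0.0042 for Sdha. The range of the members' mean score over the mice was 0.33, and 0.20 after quantile normalization, 0.43 after median centring and 0.18 after cyclic loess, alternatives chosen after seeing the data. Dim probe sets limit what can be said of the members at background.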

Other observations

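Ppargc1a, the coactivator known as a driver of mitochondrial biogenesis, was looked at after its values were seen. It read 11.78, 12.49 and 11.52 in Myd88−/− glands and 13.79, 12.03 and 11.75 in Myd88+/+ glands, a difference of −0.60 (SE 0.49, limma adjusted p = 0.705). The order of the glands within each genotype is that of the mean score of the respiratory chain members, with Myd88−/− replicate 2 and Myd88+/+ replicate 1 highest and replicate 3 lowest in both. With 3 glands to a genotype this shared order is a description, and its relation to the arrays' signal spans was not tested.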
